A study of Homo sapiens with 6 samples.

Results

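The 4 inhibitor of DNA binding genes (*ID1*, *ID2*, *ID3* and *ID4*) and the 3 E protein genes (*TCF3*, *TCF4* and *TCF12*) were followed in RD cells, an established cell line of embryonal rhabdomyosarcoma (ERMS). Members were the rows of the deposited count table whose symbol equals one of these 7 names, 7 of 58735 rows, and 6 of the 7 held enough reads to be tested. The cells carried lentiviral particles with a scrambled shRNA (control, n = 3) or an shRNA against TAK1, the kinase encoded by *MAP3K7* (n = 3). Poly(A)-selected RNA was sequenced and the reads per gene were counted by the authors. The scrambled cells share the vector, the transduction and the cell line with the knockdown cells, so by the labels the groups differ in the shRNA they carry. The comparison rests on 1 cell line and 1 shRNA against TAK1. The labels do not say that the 3 libraries of a group came from separate cultures, so p-values measure the spread between these libraries, which may be technical.

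E proteins are basic helix-loop-helix (bHLH) transcription factors made in many cell types. They bind the E-box sequence CANNTG as dimers, and in muscle precursors their partner is often MyoD or myogenin. ID proteins have the helix-loop-helix but no DNA-binding region, so they take E proteins into dimers that cannot bind DNA. *TCF3* encodes E12 and E47, *TCF4* encodes E2-2 and *TCF12* encodes HEB. ID genes are well known as direct targets of bone morphogenetic protein (BMP) signaling, in which receptor kinases activate SMAD1 and SMAD5, and in myoblasts high ID levels hold back differentiation.

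The gene models lie on 7 chromosomes (GENCODE 44, GRCh38). *ID1* is at chr20:31605283-31606515 on the plus strand, *ID2* at chr2:8678845-8684461 plus, *ID3* at chr1:23557926-23559501 minus and *ID4* at chr6:19837370-19842197 plus. *TCF3* is at chr19:1609291-1652615 minus, *TCF4* at chr18:55222185-55664787 minus and *TCF12* at chr15:56918623-57299281 plus. The exons of *ID1*, *ID3*, *ID4*, *TCF3* and *TCF12* overlap no other annotated gene, those of *ID2* share 145 bases with *ID2-AS1* on the opposite strand, and those of *TCF4* overlap *RPL21P126* and *TCF4-AS2*. Whether strand was used in counting is not given in the sources used here.

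The start regions of 3 genes are shown as examples. *ID3* held the most ID reads, *TCF3* the most E protein reads, and *ID1* is the ID gene whose difference missed the threshold. Each run is RefSeq sequence of GRCh38.p14, read 5′ to 3′ on the gene's strand and ending just before the first exon. The windows are ID1 chr20:31605039-31605282 (plus), ID3 chr1:23559502-23559751 (minus) and TCF3 chr19:1652616-1652865 (minus). Capitals mark matches on either strand to the E-box CANNTG, the GC-box, which reads GGGCGG, the CCAAT box and the cyclic AMP response element core TGACG.
ID1: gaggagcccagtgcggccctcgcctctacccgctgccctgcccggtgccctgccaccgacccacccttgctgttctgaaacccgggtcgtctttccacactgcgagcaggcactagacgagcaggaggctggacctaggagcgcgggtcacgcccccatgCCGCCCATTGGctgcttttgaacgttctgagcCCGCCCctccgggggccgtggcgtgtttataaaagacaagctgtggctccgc
ID3: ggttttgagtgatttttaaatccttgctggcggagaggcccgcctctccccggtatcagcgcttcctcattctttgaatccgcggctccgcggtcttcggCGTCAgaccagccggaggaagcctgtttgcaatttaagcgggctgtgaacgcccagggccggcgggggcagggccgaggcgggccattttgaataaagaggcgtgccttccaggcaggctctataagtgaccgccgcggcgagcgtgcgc
TCF3: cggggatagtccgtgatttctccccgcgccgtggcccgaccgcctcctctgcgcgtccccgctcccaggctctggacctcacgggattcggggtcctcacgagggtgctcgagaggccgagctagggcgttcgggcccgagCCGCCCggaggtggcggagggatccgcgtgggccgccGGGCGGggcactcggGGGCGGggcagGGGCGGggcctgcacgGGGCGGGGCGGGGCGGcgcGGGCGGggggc
In *ID1* the capitals are a GC-box adjoining a CCAAT and then a further GC-box, in *ID3* a lone TGACG, and in *TCF3* 8 GC-boxes, some of which overlap each other. The same search was made in the 250 bases before the RefSeq start of all 7 genes. Of these, 202 bases in the *ID2* window, 70 in that of *TCF4* and 6 in that of *ID1* lie in annotated exons of the gene itself, so matches there need not lie upstream of the gene. E-boxes, held by 62.2% of 27305 promoters, occurred once each in *ID2*, *ID4*, *TCF4* and *TCF12*, and 0 times in *ID1*, *ID3* and *TCF3*. GC-boxes, held by 42.3%, were found in *ID1* (2), *ID2* (2), *ID4* (6) and *TCF3* (8). CCAAT, held by 33.0%, was found in *ID1* (1), *ID2* (3) and *ID4* (1), and TGACG, held by 21.7%, in *ID3* (1) alone among the 7. GGCGCC, a sequence bound by SMAD1 and SMAD5 and held by 16.1% of promoters, had 0 matches in the 7 windows, which says nothing of sites elsewhere. GC content ran from 40.8% in *TCF4* to 79.6% in *TCF3*. A match is a run of letters and not evidence of binding.

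Library totals ran from 28839898 to 34469323 counts, and the genes tested held 99.9% of them in each library. *MAP3K7*, the targeted gene, stood at 77.9, 76.5 and 77.6 CPM in the scrambled libraries and at 30.5, 33.6 and 29.9 in the TAK1 shRNA libraries, with a log2 fold change of -1.30 (SE 0.062, edgeR adjusted p = 4.45e-14). CPM is the count divided by the TMM-scaled library size and expressed per 1e6 counts. Muscle markers were present, as the labelled line calls for. *MYOD1*, *MYOG*, *DES*, *CHRNA1* and *CDH15* together held 1878 to 1909 CPM in scrambled and 1791 to 1901 in TAK1 shRNA libraries, and 5 of 5 were tested. Markers of other cell types were near 0, with 0 of 3 epithelial, 0 of 3 endothelial and 0 of 3 leukocyte markers passing the filter on low counts. Their summed levels were at most 0.453, 0.162 and 0.413 CPM, and *CDH1*, *CDH5* and *CD3E* had 0 counts in all 6 libraries. In bulk RNA, fewer cells that make a transcript and less of it per cell cannot be told apart.

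In cells expressing TAK1 shRNA, 4 of the 6 tested genes were lower, *ID2*, *ID3*, *TCF4* and *TCF12*, and 0 were higher past both thresholds, an adjusted p under 0.05 with a log2 fold change of 0.25 or more in size (edgeR quasi-likelihood test with Benjamini-Hochberg adjustment over 15935 genes). Of all genes tested, 11.3% were called lower and 11.8% higher. The groups did not overlap in 6 of the 6 tested members, against 43.9% of all genes. At an unadjusted p under 0.05, 5 of the members were lower and 1, *TCF3*, was higher. DESeq2 and limma voom each called 4 lower and 0 higher.

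*ID3*, which held 89.6% to 92.6% of the reads of the 4 ID genes in every library, stood at 125, 120 and 119 CPM in scrambled and at 90.3, 82.7 and 78.7 CPM in TAK1 shRNA libraries. All 3 knockdown libraries lay below all 3 controls. The means were 121 ± 3.16 and 83.9 ± 5.92 CPM (SD, n = 3), so the *ID3* transcript was 30.9% lower, a log2 fold change of -0.53 (SE 0.054, edgeR adjusted p = 2.71e-08). Across the 16 alternative analyses this change lay between -0.59 and -0.49.

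*ID2* was scarce. Its counts were 69, 118 and 85 in scrambled and 30, 50 and 67 in TAK1 shRNA libraries, which is 2.43, 3.75 and 2.76 CPM against 1.03, 1.42 and 2.03 CPM. The groups were apart, but the highest knockdown library came close to the lowest control. The mean fell from 2.98 ± 0.687 to 1.49 ± 0.506 CPM (SD, n = 3), 49.7% lower, with a log2 fold change of -0.99 (SE 0.25, edgeR adjusted p = 0.0030). This was the largest change among the members and the least precise of them, and it ranged from -1.29 without TAK1 shRNA replicate 3 to -0.79 without scrambled replicate 2. The antisense transcript *ID2-AS1* had 4, 0 and 2 counts in scrambled and 9, 11 and 12 in TAK1 shRNA libraries, and did not pass the filter on low counts. If strand was not used, reads over the 145 shared bases could belong to either gene.

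*ID1*, the ID gene most often used as a readout of BMP signaling, did not pass the test. Its counts were 243, 251 and 232 in scrambled and 181, 238 and 233 in TAK1 shRNA libraries, or 8.55, 7.97 and 7.52 CPM against 6.19, 6.74 and 7.06 CPM. The scaled values did not overlap, although the counts before scaling did. The means were 8.01 ± 0.512 and 6.66 ± 0.439 CPM (SD, n = 3), and the log2 fold change of -0.26 had a SE of 0.12 (edgeR adjusted p = 0.0967, between 0.0706 and 0.260 over the alternatives). *ID4*, an ID gene known from neural precursors, had 2 counts in scrambled replicate 1 and 0 in the other 5 libraries. A level of up to 0.0870 to 0.104 CPM, depending on the library, is allowed by a count of 0, so *ID4* was not detectable at this depth and was not tested. Limits of this kind cover counting error only.

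**Figure D1:**
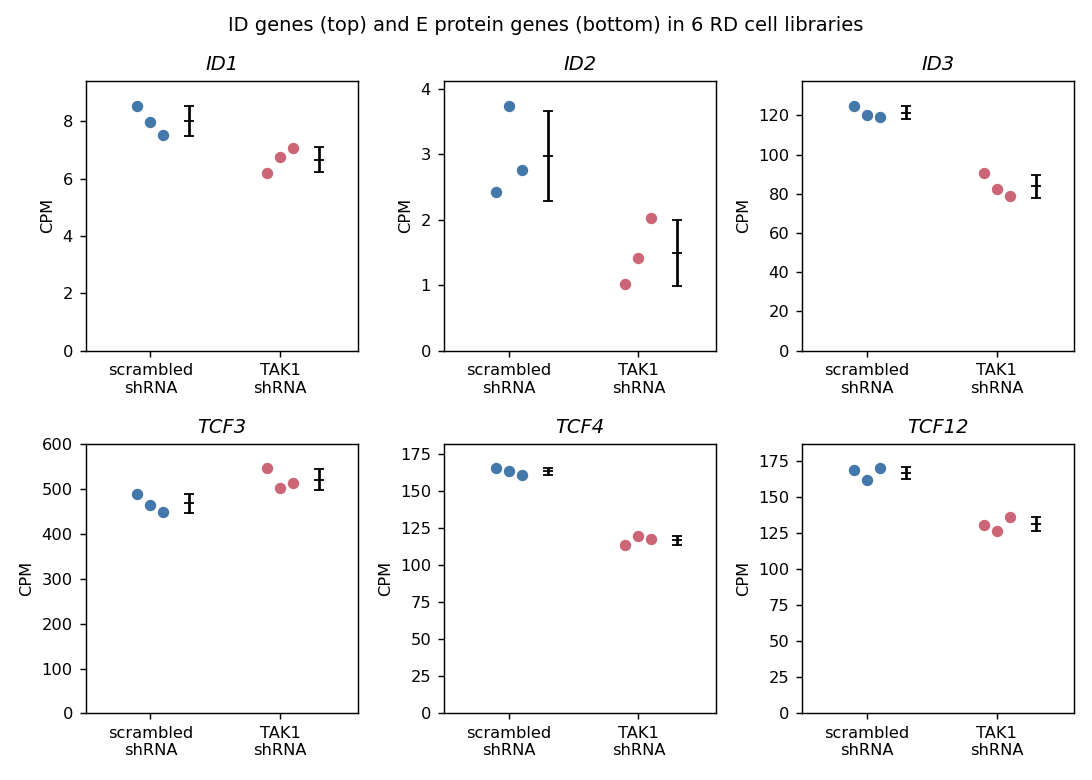
Level of the 6 tested ID and E protein genes in each library, in TMM-scaled CPM (linear axis from 0). Points are libraries (3 per group), and the bar beside them is the mean ± SD. *ID1*, *ID2*, *ID3*, *TCF4* and *TCF12* lie lower in all 3 TAK1 shRNA libraries than in any scrambled library, although *ID1* was not called. *TCF3* lies slightly higher, at 521 against 468 CPM.

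Among the E proteins, *TCF4* and *TCF12* fell and *TCF3* did not follow them. *TCF4* stood at 165, 164 and 160 CPM in scrambled and at 113, 119 and 117 CPM in TAK1 shRNA libraries. These groups were tight and far apart. The *TCF4* means were 163 ± 2.46 and 117 ± 3.10 CPM (SD, n = 3), 28.4% lower, with a log2 fold change of -0.48 (SE 0.047, edgeR adjusted p = 1.41e-08). *TCF4* has 93 annotated transcripts, which a count per gene cannot tell apart. Its exons share 260 bases with *RPL21P126* and *TCF4-AS2* on the opposite strand. If strand was not used, reads there could belong to any of these genes.

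*TCF12* stood at 169, 162 and 170 CPM in scrambled and at 130, 127 and 136 CPM in TAK1 shRNA libraries, again with no overlap. The means were 167 ± 4.39 and 131 ± 4.81 CPM (SD, n = 3), 21.4% lower, with a log2 fold change of -0.35 (SE 0.048, edgeR adjusted p = 3.18e-06). *TCF3*, by contrast, stood at 490, 465 and 449 CPM in scrambled and at 546, 503 and 514 CPM in TAK1 shRNA libraries. All 3 knockdown values exceeded all 3 controls, but by little. The *TCF3* means were 468 ± 20.5 and 521 ± 22.7 CPM (SD, n = 3), 11.3% higher. Its log2 fold change of 0.15 (SE 0.046) passed the adjusted p (edgeR, 0.0101) and stayed under the fold threshold, so it was not called. Without scrambled replicate 2 the adjusted p of *TCF3* in the same edgeR test was 0.0612, and without scrambled replicate 3 it was 0.0989.

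**Figure D2:**
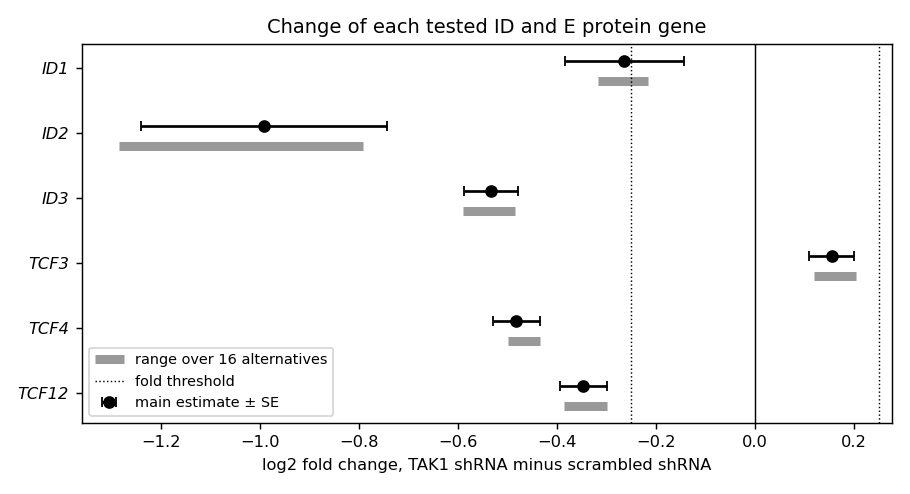
Log2 fold change (TAK1 shRNA minus scrambled shRNA) of the 6 tested members. Black points with bars are edgeR estimates ± SE, gray bars span the 16 alternative analyses and dotted lines mark the fold threshold of 0.25 in either direction. *ID2*, *ID3*, *TCF4* and *TCF12* lie below -0.25 over their whole gray range, *ID1* straddles it (-0.32 to -0.22) and *TCF3* stays between 0.12 and 0.20.

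Ratios of counts within a library need no scaling between libraries and show the same divergence. The *TCF3* to *TCF4* count ratio was 2.96, 2.84 and 2.80 in scrambled and 4.82, 4.21 and 4.37 in TAK1 shRNA libraries. The *TCF3* to *TCF12* ratio was 2.90, 2.87 and 2.64 against 4.19, 3.97 and 3.77. In both pairs every knockdown library lay above every control. The *TCF12* to *TCF4* ratio moved little, from 1.02, 0.990 and 1.06 to 1.15, 1.06 and 1.16, and the nearest libraries of its groups all but touched. *TCF3* supplied 57.6% to 59.5% of E protein counts in scrambled and 66.9% to 69.1% in TAK1 shRNA libraries, whereas *TCF4* went from 20.1% to 20.7% down to 14.3% to 15.9%. These pairs were chosen with the values known, and the differences between members were not tested.

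Set against the ID genes, the *ID3* to *TCF3* count ratio was 0.255, 0.259 and 0.265 in scrambled and 0.165, 0.164 and 0.153 in TAK1 shRNA libraries. The *ID3* to *TCF4* ratio, 0.757, 0.736 and 0.742 against 0.797, 0.693 and 0.670, overlapped between groups. *ID3* thus lay lower against *TCF3* in every knockdown library, and against *TCF4* it lay on both sides of the controls. The *ID3* to *MYOD1* ratio, an ID gene over a main myogenic partner of E proteins, was 0.461, 0.472 and 0.455 in scrambled and 0.254, 0.243 and 0.244 in TAK1 shRNA libraries.

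Levels can be compared between genes only per length, so CPM was divided by the kilobases of each gene's merged exons. In scrambled cells the order of this length-scaled level was *ID3* (81.2 ± 2.11), *TCF3* (73.5 ± 3.21), *TCF12* (17.7 ± 0.465), *ID1* (6.50 ± 0.415), *TCF4* (5.59 ± 0.0842), *ID2* (1.35 ± 0.310) and *ID4* (CPM per kilobase, mean ± SD, n = 3). In TAK1 shRNA cells *TCF3* (81.8 ± 3.57) stood above *ID3* (56.1 ± 3.96), followed by *TCF12* (13.9 ± 0.509), *ID1* (5.40 ± 0.356), *TCF4* (4.00 ± 0.106) and *ID2* (0.673 ± 0.229). Among these neighbors no ranges over the 3 libraries of a group overlapped. Some of these places depend on the length used. With coding length *ID3* stayed above *TCF3* in TAK1 shRNA cells, at 235 ± 16.6 against 199 ± 8.68 CPM per kilobase. The merged exons of *TCF4* span 29166 bases. With the longest transcript as the length, *TCF4* stood at 19.5 and *ID1* at 6.50 in scrambled cells, so their order turned.

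The summed length-scaled level of the ID genes was 91.6, 88.6 and 86.9 CPM per kilobase in scrambled and 65.9, 61.4 and 59.2 in TAK1 shRNA libraries, 30.2% lower. That of the E proteins was 100.4, 95.8 and 94.0 against 103.5, 96.5 and 99.1, and its groups overlapped. The quotient of the sums, ID over E protein, was 0.912, 0.925 and 0.924 in scrambled and 0.636, 0.636 and 0.598 in TAK1 shRNA libraries. Its means were 0.920 ± 0.00703 and 0.623 ± 0.0222 (SD, n = 3), so it was 32.3% lower in the knockdown. With the longest transcript as the length the knockdown quotient was 0.696 of the control and with the coding length 0.716, against 0.677 with merged exons. The ratio of the E protein sum itself turned with the length, from 1.03 with merged exons to 0.999 with the longest transcript and 0.968 with the coding length. With merged exons *ID3* held 81.2 of the mean ID sum of 89.0 in scrambled and 56.1 of 62.2 in TAK1 shRNA libraries. *TCF3* held 73.5 of the E protein sum of 96.7 and 81.8 of 99.7. The quotient thus mainly reflects *ID3* and *TCF3*, and the E protein sum does not show the falls of *TCF4* and *TCF12*. These sums describe transcripts and not protein, and no test was run on them.

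**Figure D3:**
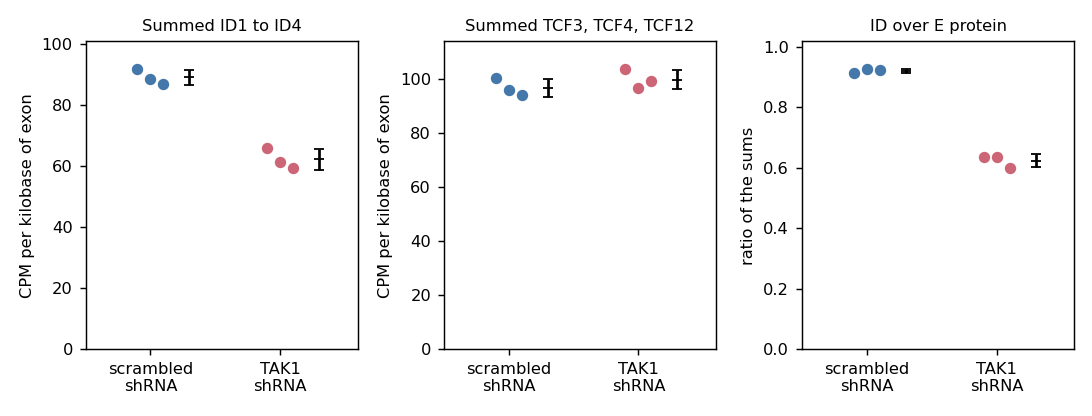
Summed length-scaled level of the ID genes (left), of the E protein genes (middle), both in CPM per kilobase of merged exon, and their quotient (right), in each library. Points are libraries, bars are mean ± SD and axes start at 0. The ID sum is 89.0 in scrambled and 62.2 in TAK1 shRNA libraries, the E protein sums overlap (96.7 and 99.7), and the quotient is 0.920 and 0.623.

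The genes known to feed the ID genes came next. BMP ligands bind type I and type II receptors, which activate SMAD1, SMAD5 and SMAD9, and secreted antagonists and inhibitory SMADs limit the signal. Of 29 genes of BMP-SMAD input, 22 were tested, 8 fell (36.4%) and 3 rose (13.6%), beside 11.3% and 11.8% of all genes. The median log2 fold change was -0.14, and 0.018 over all genes tested. This list and those below were chosen with earlier results of these data known. Their shares are a description, and no test was run on the lists as sets.

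*BMPR1A*, a type I receptor, stood at 257, 251 and 255 CPM in scrambled and at 138, 145 and 142 CPM in TAK1 shRNA libraries. This was a wide gap with no overlap, a log2 fold change of -0.85 (SE 0.045, edgeR adjusted p = 3.58e-13). The receptors *BMPR2* (-0.33) and *ACVR2B* (-0.35) and the signal carriers *SMAD5* (-0.39) and *SMAD1* (-0.30) fell too. So did genes that restrain the pathway. *NOG*, which encodes the secreted antagonist noggin, stood at 44.3 ± 2.84 and 25.8 ± 3.60 CPM (log2 fold change -0.78, edgeR adjusted p = 4.76e-08). *SMAD6*, an inhibitory SMAD and itself a known BMP target, stood at 24.9 ± 0.747 and 16.8 ± 1.54 CPM (-0.57, edgeR adjusted p = 6.21e-06).

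The genes that rose in this list were *ACVR2A* (0.33), a type II receptor, *CHRD* (0.44), which encodes the antagonist chordin, and the ligand *BMP4* (0.26, edgeR adjusted p = 0.0442). Receptors, signal carriers and inhibitors were thus found among the lower genes, and a receptor, an antagonist and a ligand among the higher ones. Of the most abundant genes that were not called, the coreceptor *ENG* had a log2 fold change of -0.10, the coreceptor *RGMB* -0.15, and the ubiquitin ligases *SMURF1* and *SMURF2* 0.15 and -0.10. Of the 11 calls, 8 held in each of the 6 fits that left out 1 library. *BMP4* was lost in 5 of these 6 (kept without scrambled replicate 3) and with DESeq2, and *CHRD* without scrambled replicate 1, scrambled replicate 2 or TAK1 shRNA replicate 2. Exons of 6 of the 11 called genes overlap those of another annotated gene.

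Of 23 bHLH genes whose proteins pair with E proteins, 11 were tested, 4 rose (36.4%) and 0 fell, with a median log2 fold change of 0.22. Over all genes tested, 11.8% rose and 11.3% fell, with a median of 0.018. The count of genes lower was also 0 at an unadjusted p under 0.05 in edgeR, and 0 with DESeq2 and with limma voom. *MSC*, which encodes musculin, a bHLH repressor of muscle genes, stood at 189, 170 and 170 CPM in scrambled and at 272, 237 and 243 CPM in TAK1 shRNA libraries. Every knockdown library was above every control, with a log2 fold change of 0.51 (SE 0.054, edgeR adjusted p = 6.62e-08), although its exons overlap those of *MSC-AS1*. *MYOD1*, the myogenic regulator, stood at 263 ± 8.03 and 339 ± 16.7 CPM (0.37, edgeR adjusted p = 8.15e-07). The *MSC* to *MYOD1* count ratio, 0.697, 0.668 and 0.649 against 0.765, 0.695 and 0.756, overlapped between the groups.

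*ATOH8* (0.49, from 16.4 to 23.1 CPM) and *MYOG* (0.27, from 141 to 170 CPM), the gene of myogenin, were the others that rose. The *MYOG* call was lost without scrambled replicate 1 or without TAK1 shRNA replicate 1. *MYF5* had 0 counts in all 6 libraries and *MYF6* was not tested, so *MYOD1* and *MYOG* were the myogenic regulators with measurable levels. The uncalled *TCF15* (-0.40), *LYL1* (-0.37), *SCX* (0.30) and *BHLHA15* (0.22) had group means of at most 3.44 CPM and their groups overlapped. *TCF15* was called lower without TAK1 shRNA replicate 1.

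Among 13 repressors that bind E-boxes or related sites, 11 were tested. Of these 3 rose (27.3%) and 1 fell (9.09%), beside 11.8% and 11.3% of all genes. *HES1*, a Notch effector, fell from 30.1 ± 0.802 to 18.7 ± 1.96 CPM (log2 fold change -0.69, edgeR adjusted p = 3.05e-07). *ZEB2* rose from 119 to 151 CPM (0.35, edgeR adjusted p = 6.44e-06), and *BHLHE40* (0.37) and *HES6* (0.29) rose as well. *HES6*, known to oppose HES1 in myoblasts, lost its call without TAK1 shRNA replicate 1. *HEY1* (0.12), *SNAI2* (-0.15) and *ZEB1* (-0.16) passed the adjusted p but not the fold threshold, and *HEYL* stood at 223 CPM in both groups.

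Cofactors of E proteins include acetyltransferases, corepressors of the ETO family and the LIM-domain binding complex. Of 15 such genes 12 were tested, 2 rose (16.7%) and 1 fell (8.33%), with a median log2 fold change of 0.09. These shares lie near the 11.8% and 11.3% of all genes tested. *CREBBP*, an acetyltransferase that coactivates E proteins, rose from 163 to 202 CPM (0.31), and *CBFA2T3*, an ETO family corepressor, rose from 12.0 to 17.6 CPM (0.56). *KAT2B*, another acetyltransferase, had a log2 fold change of -0.48 (edgeR adjusted p = 0.0434), a call lost in DESeq2, under the upper quartile and library size scalings, and in 4 of the 6 fits that left out 1 library (scrambled replicate 2 or 3, or TAK1 shRNA replicate 2 or 3). *EP300* (0.13), *SSBP3* (-0.21), *CARM1* (-0.21) and *LDB1* (0.25) were not called. The *LDB1* value lay just under the fold threshold and was called without scrambled replicate 2, without TAK1 shRNA replicate 3 and under both of those scalings, and *CARM1* was called lower without TAK1 shRNA replicate 1.

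ID and E proteins are short-lived, and 10 genes of their ubiquitin and SUMO pathways were tested. Of these 3 fell (30.0%) and 0 rose (1 at an unadjusted p under 0.05 in edgeR, 0 called with DESeq2 or limma voom), with a median log2 fold change of -0.036. Over all genes tested, 11.3% fell and 11.8% rose. *SKP2*, the F-box subunit of a ubiquitin ligase active in S phase, stood at 335, 333 and 342 CPM in scrambled and at 196, 206 and 200 CPM in TAK1 shRNA libraries. These groups were far apart, with a log2 fold change of -0.75 (SE 0.044, edgeR adjusted p = 1.96e-12). *CDC27*, a subunit of the anaphase-promoting complex, fell (-0.45), as did *USP1* (-0.27), whose product removes ubiquitin from ID proteins. The *USP1* call was lost without TAK1 shRNA replicate 2 and when scaled by library size alone. *HUWE1* (0.14), *FZR1* (0.04) and *SMURF2* (-0.10) were not called.

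Genes that MyoD and E proteins are known to activate in muscle were moved in both directions. Of 27 such genes 27 were tested, 10 rose (37.0%) and 5 fell (18.5%), and the median log2 fold change was 0.12. These shares stand beside 11.8% and 11.3% of all genes, whose median was 0.018. *MYMK*, the myoblast fusion protein myomaker, went from 6.83 ± 0.461 to 13.5 ± 1.33 CPM (0.98, edgeR adjusted p = 1.43e-07). The myosin light chain *MYL1* (0.65), the actin *ACTC1* (0.40), the troponin *TNNI1* (0.35) and *MYOG* (0.27) rose, as did *RAPSN* (0.65), *CHRNG* (0.47) and *MUSK* (0.30) of the neuromuscular synapse. *CAV3* (0.71) and *MYH8* (0.50) completed the 10, both with group means of at most 3.72 CPM.

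*CDKN1C*, which encodes the cell cycle inhibitor p57, fell from 21.0 ± 1.31 to 10.3 ± 0.607 CPM (-1.03, edgeR adjusted p = 2.74e-09). The acetylcholine receptor subunit *CHRNA1* fell from 921 ± 11.5 to 700 ± 2.33 CPM (-0.40, edgeR adjusted p = 1.91e-08). *ITGA7* (-0.42), an integrin, *MYL4* (-0.37), an embryonic light chain, and *MYMX* (-0.27), the fusion partner of myomaker, were the others that fell. The list thus split within functional groups, with *MYMK* higher and *MYMX* lower, and *CHRNG* higher and *CHRNA1* lower. Exons of 6 of the 15 called genes overlap those of another annotated gene. For *CHRNG*, 2918 of 4362 exon bases are shared with *TIGD1* on the opposite strand. If strand was not used, reads there could belong to either gene, so the *CHRNG* rise may not be its own. *TNNT1* (0.07), *DES* (0.09), *CHRND* (0.03) and *CDH15* (0.23) were not called, although *CDH15* was called higher without TAK1 shRNA replicate 3 and when scaled by library size alone. Of the 15 calls, 10 held without each library in turn. *CAV3* was lost in 5 of these 6 fits (kept without scrambled replicate 3) and with DESeq2, *MYH8* in 4 (without scrambled replicate 2 or 3, or TAK1 shRNA replicate 2 or 3), *MYMX* without scrambled replicate 1 or TAK1 shRNA replicate 2 and under the upper quartile and library size scalings, *MYL4* without scrambled replicate 3, and *MYOG* as given above.

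**Figure D4:**
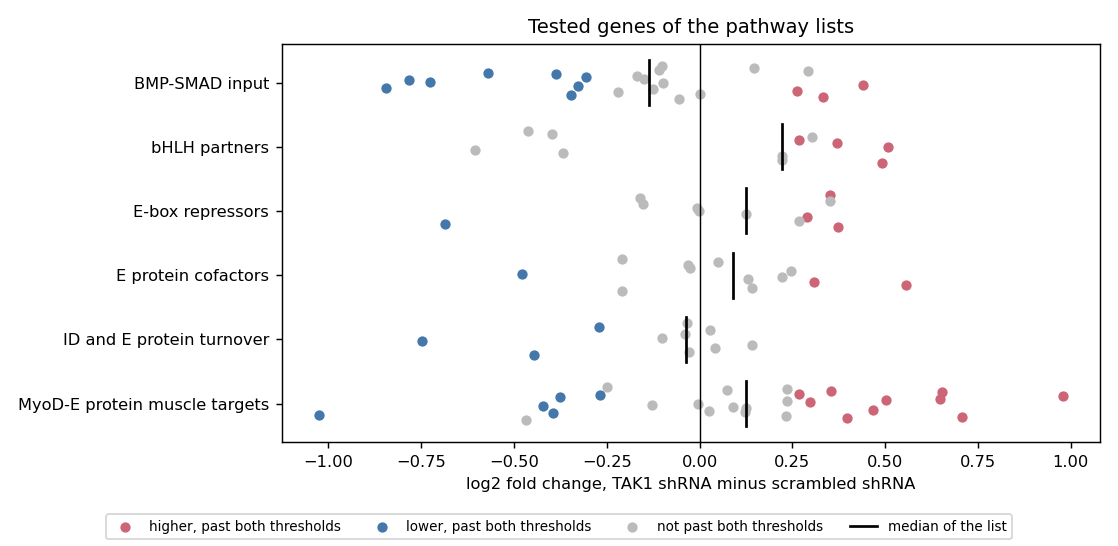
Log2 fold change (TAK1 shRNA minus scrambled shRNA, horizontal axis) of each tested gene in the 6 lists. Red and blue points passed both thresholds, gray points did not, and black bars are list medians. BMP-SMAD input has 8 lower and 3 higher genes with a median of -0.14, and the bHLH partners have 4 higher and 0 lower with a median of 0.22.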

How the data were processed

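The authors extracted RNA from transduced RD cells, sequenced poly(A) libraries, removed adaptor and poor-quality reads, and mapped reads to GRCh38 using STAR. They deposited raw counts of reads per gene. The counter, annotation release and strand use are not given in the sources used here. Members and gene lists were chosen with earlier results of these data known.

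Counts were tested with edgeR 4.0.16 in R 4.3.3 (default filter on low counts, TMM, quasi-likelihood test without covariates, p adjusted by Benjamini-Hochberg over the 15935 genes tested). Calls needed an adjusted p under 0.05 with a log2 fold change of 0.25 or more in size. DESeq2 1.42.0, limma 3.58.1 (voom), other normalizations, filters and fold thresholds, a replicate block, and fits lacking 1 library served as alternatives. The test was checked on simulated counts. Exon lengths and overlaps came from GENCODE 44 and promoters from RefSeq.

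Named genes were the members, *MAP3K7*, every called gene of each list with up to 4 others of highest mean CPM, and the 5 genes of at least 10 CPM most correlated with the called member of largest change. Some genes that this rule selects are not reported here, but the counts over lists include them. Library totals were 28839898 to 34469323 counts and the common biological coefficient of variation was 5.67%. Counting error therefore mattered mainly for *ID1*, *ID2*, *ID4* and other scarce genes. Replicates differed beyond sampling noise in every pair of libraries within a group.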

Additional observations from a re-analysis of the deposited data

How the results depend on the processing

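The signs of the 6 member changes were the same in all 16 alternatives, and 4 members were called in each fit that left out 1 library. The alternatives that change only the fold threshold reuse the main estimates, so signs could not differ there. At a fold threshold of 0.5, 2 members remained past it (*ID2* and *ID3*), since *TCF4* (-0.48) and *TCF12* (-0.35) lay under it, and the lists kept 4 genes (BMP-SMAD input), 1 (bHLH partners), 1 (E-box repressors), 1 (E protein cofactors), 1 (turnover) and 6 (muscle targets). With no fold threshold *TCF3* (0.15) was called, and the E-box repressors and cofactors held 7 and 8 calls. The ID over E protein quotient of knockdown to control was 0.716 with the coding length and 0.670 to 0.691 without each library.

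Over all genes, 1879 were higher and 1805 lower, so 51.0% of calls were higher, against 62.9% (2376 and 1404) when scaled by library size alone. The fold threshold of 0.5 gave 735 and 680, and no fold threshold 2569 and 2734. Same-numbered libraries had correlations of 0.037, 0.036 and 0.016 in their deviations. Differently numbered ones ran from -0.052 to 0.019, and scrambled replicate 3 correlated best with TAK1 shRNA replicate 2 (0.019). These values do not decide whether same-numbered libraries were paired. The labels do not say that a number marks a shared batch, so the numbers were not taken as pairs. With the replicate block 1942 genes were higher and 1848 lower, *ID2* stood at -1.01 and *TCF3* at 0.15 (edgeR adjusted p = 0.00053), and 4 members were called. At this depth a count of 0 limits *ID4*, and few reads limit *ID2* and, to a lesser degree, *ID1*.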

Other observations

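The genes whose log2 CPM over the 6 libraries lay closest to that of *ID2* were *COA7* (Pearson r = 0.999), *PITPNB* (0.994), *SOD1* (0.993), *PGM2* (0.993) and *NUDT5* (0.991), the highest of the 9711 genes averaging 10 CPM or more. The points share the libraries and the group difference, so these correlations are a description with no test. Their own log2 fold changes were much smaller than that of *ID2*, with -0.12 for *COA7*, -0.17 for *PITPNB*, -0.08 for *SOD1*, -0.39 for *PGM2* and -0.24 for *NUDT5*, against -0.99. The likeness is in the order and spacing of the libraries and not in the size of the difference.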
